A study of Mus musculus with 6 samples.

Results

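Enzymes that write, erase and read histone and DNA marks, and the ATP-driven machines that move nucleosomes, were examined as one module in mouse embryonic neural stem cells in which the transcription factor Sox4 was targeted by short hairpin RNA (shRNA). The members are the genes of 1-symbol rows in the authors' comparison whose names fall in the Kdm, Kmt, Setd, Hdac, Sirt, Kat, Smarc, Arid, Chd, Brd, Ino80, Dnmt, Tet, Ehmt, Suv, Whsc1, Prmt, Cbx and Asxl families, with Ep300, Crebbp, Dot1l and Nsd1, and whose level is at least 1 in either condition. Kdm5d was left out by that rule. This gave 131 members among 11564 genes that met the same level and symbol criteria, termed the background here, out of 12316 gene rows. Of 133 matching rows of any level, 2 lay below the threshold. The nearest genes outside it were Dnmt3b, at most 0.995, and Cbx7, at most 0.900, per the authors' deposited table. The nearest inside were Arid5a, Setd4 and Arid3b, with 1.45, 1.47 and 1.59 as their higher level, per the authors' deposited table.

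Nucleosomes package DNA, and chemical marks on their histone tails change how tightly they are packed and which proteins bind them. Acetyltransferases and several methyltransferases mark active genes and enhancers, while deacetylases, other methyltransferases and DNA methyltransferases act mainly in silencing, and demethylases and Tet enzymes take marks off. Remodellers of the SWI/SNF, ISWI, CHD and INO80 classes use ATP to slide, evict or exchange nucleosomes, and in neural precursors the subunit composition of the SWI/SNF complex is known to change as cells leave the cycle.

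The cells came from E14.5 embryos of the CD-1 strain, were bought from a commercial source and were cultured as an adherent layer with EGF and bFGF, then selected with puromycin at 0.5 µg/mL after lentiviral transduction. The labels give 6 poly(A) RNA libraries in 3 groups of 2: a scrambled hairpin (SHC002) and 2 different hairpins against Sox4. The titles of each pair end in p1 and p2, which is read here as passages. All groups therefore share the lentiviral vector and the selection. The libraries of a group come from a purchased cell stock, and nothing says that they are separate cultures. The deposited comparison gives 1 level per gene for a first and a second condition, with no value per library, so the spread within a condition cannot be shown and the sequencing depth is unknown. Its header does not name the conditions or say how the hairpins were combined. Directions below are therefore those of the second condition over the first. Sox4 had levels of 126.8 (first) and 83.9 (second), with a log2 fold of -0.60 with a Cuffdiff q of 0.0543, per the authors' deposited table.

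A gene "rose" or "fell" here where the authors flagged it as significant, which in their table means a Cuffdiff q up to 0.0494. The header leaves the unit of the levels unstated. Cuffdiff writes FPKM, in which fragments are divided by transcript length and library size, so levels are read here as per length. Of the neural stem cell markers Nes, Sox2, Sox1, Sox9, Pax6, Vim, Fabp7, Msi1, Prom1, Slc1a3, Egfr and Hes1, 11 of 12 were measured at 1 or more, 2 rose and 1 fell. Nes rose 1.73-fold and Sox1 1.88-fold, while Fabp7 fell from 4620 to 2286, per the authors' deposited table. The summed level of these markers was 6262 (first) and 4109 (second). Fabp7 made up most of both sums, and its own fall was larger than that of the sum. Of 8 neuron markers 4 were measured and 0 were called, and Tubb3 had 6.75 and 3.90 with a Cuffdiff q of 0.0996, per the authors' deposited table. The summed level of the neuron markers was 131 and 134, most of it from Map2, at 122.1 and 127.4, per the authors' deposited table. Of the listed microglial and endothelial markers, 0 of 7 and 0 of 6 were among the background genes. Of 6 astrocyte markers 3 fell and 1 rose, and their summed level was 220 (first) and 131 (second). Of 8 oligodendrocyte lineage markers 6 were measured, 2 fell and 0 rose, with summed levels of 1417 and 1217. Most of these sums came from Olig1 and Olig2, which were not called. Bulk RNA cannot tell fewer cells of a type from less RNA per cell. The part of these shifts in the values of the chromatin genes was not tested.

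Most chromatin genes were not called. Of the 131 members 6 rose, 1 fell and 124 were not called. The genes that rose were the methyltransferase gene Kmt2d, the acetyltransferase gene Crebbp, the SWI/SNF subunit gene Arid1a, the DNA demethylation gene Tet1, the INO80 subunit gene Ino80d and the deacetylase gene Hdac11. The gene that fell was Smarca1, which encodes an ISWI remodelling ATPase. The 6 rises are 4.58% of the members, against 3.29% of background genes that rose, and the 1 fall is 0.763%, against 1.89%. In either direction 5.18% of the background was called. The members' share of rises therefore lay near that of the background.

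Kmt2d (chromosome 15, 98831669 to 98871204, minus strand, GRCm38) encodes a large methyltransferase of enhancers. Its level was 4.38 (first condition) and 7.79 (second condition), per the authors' deposited table, 1.78-fold higher, with a log2 fold of 0.83 and a Cuffdiff q of 0.00304. Crebbp (chromosome 16, 4081328 to 4213997, minus strand) encodes the acetyltransferase CBP, a coactivator of many transcription factors. It went from 8.61 to 14.7, per the authors' deposited table, 1.70-fold higher, with the same Cuffdiff q of 0.00304. Both genes share the lowest p that the table holds, 5e-05, so they cannot be ranked by p.

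Arid1a (chromosome 4, 133679008 to 133756769, minus strand) encodes a DNA-binding subunit that defines the canonical SWI/SNF complex. It stood at 15.5 and 24.1, per the authors' deposited table, 1.56-fold higher, with a Cuffdiff q of 0.0105. Tet1 (chromosome 10, 62804570 to 62908996, minus strand) encodes an enzyme that oxidises methylated cytosine, the opening step of DNA demethylation. For Tet1 the authors' deposited table has 2.33 and 3.76, 1.62-fold higher, with a Cuffdiff q of 0.0248. Ino80d (chromosome 1, 62958418 to 63114667, minus strand) encodes an accessory subunit of the INO80 remodeller, and its levels were 2.07 and 3.47, per the authors' deposited table, with a Cuffdiff q of 0.012. Thus 4 of the 6 rises, all but Crebbp and Arid1a, stayed below a level of 8 in both conditions.

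Hdac11 (chromosome 6, 91156665 to 91174692, plus strand) encodes the only class IV deacetylase. It had the largest fold of all members, from 1.49 to 3.23, per the authors' deposited table, with a log2 fold of 1.12 and a Cuffdiff q of 0.0259. Smarca1 (chromosome X, 47809368 to 47892974, minus strand) moved the other way, from 3.62 to 2.02, per the authors' deposited table, 1.79-fold lower, a log2 fold of -0.84 with a Cuffdiff q of 0.0392. Exons of Hdac11 overlap those of Gm14573 and Gm44002 on the other strand, and exons of Ino80d overlap its antisense gene Ino80dos. Whether counting used strand is not stated, so reads of such pairs may be mixed. In all, 57 of the 131 members have an exon overlap with another gene, 47 of them on the other strand. No exon overlap was found for Kmt2d, Crebbp, Arid1a, Tet1 or Smarca1 in GENCODE release M21.

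**Figure D1:**
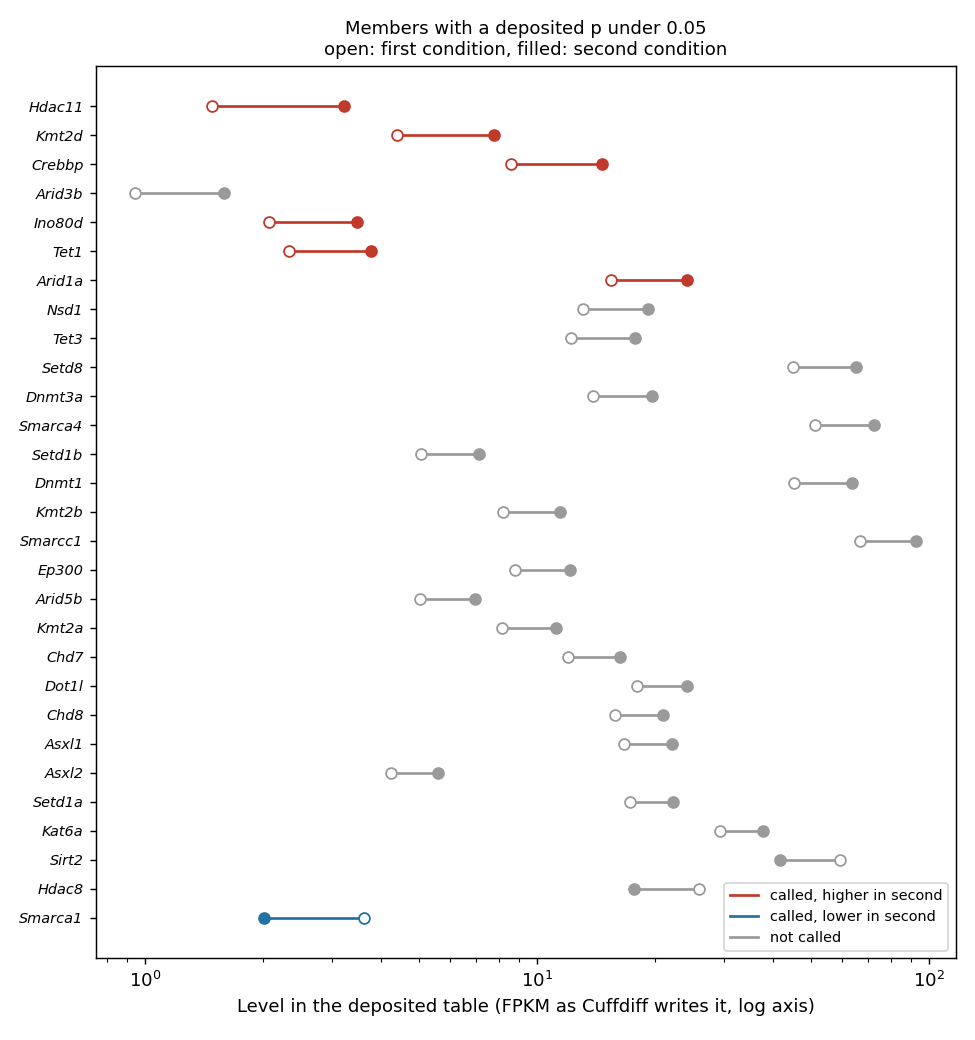
Levels of the 29 members with a deposited p under 0.05, on a log axis, in the first (open circles) and second condition (filled circles) of the authors' deposited table, ordered by fold, with 1 value per condition and no error. The red lines are the 6 members that rose, the blue line is Smarca1, which fell, and grey lines are 22 members that were not called. All but Smarca1, Hdac8 and Sirt2 were higher in the second condition.

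The promoter windows of called members are shown because the start regions of these genes differ widely in CpG content, the substrate of the Dnmt and Tet enzymes among the members. Each window runs from 250 bases before to 50 after a RefSeq transcript start (GRCm38.p6), is written 5′ to 3′ on the gene's strand, and carries CG in capitals. Windows were found for 103 of the 131 members by symbol. The 4 windows printed are those of the rises with the lowest Cuffdiff p, of Tet1, and of the fall. The RefSeq starts of Crebbp, Tet1 and Smarca1 lie within the GENCODE spans of these genes. Those of Crebbp and Smarca1 are close to the 5′ end of the span. The Tet1 window ends at 62887574, far inside a span whose 5′ end is at 62908996, so it is that of an internal start.
Crebbp promoter (chr16:4213355-4213654, minus strand): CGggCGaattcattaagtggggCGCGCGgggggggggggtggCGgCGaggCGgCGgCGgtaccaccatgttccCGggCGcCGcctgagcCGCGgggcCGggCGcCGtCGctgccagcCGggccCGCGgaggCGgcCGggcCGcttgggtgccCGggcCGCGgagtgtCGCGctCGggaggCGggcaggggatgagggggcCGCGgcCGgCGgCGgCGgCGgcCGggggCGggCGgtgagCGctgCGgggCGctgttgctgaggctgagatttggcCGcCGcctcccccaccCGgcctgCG
Kmt2d promoter (chr15:98871156-98871455, minus strand): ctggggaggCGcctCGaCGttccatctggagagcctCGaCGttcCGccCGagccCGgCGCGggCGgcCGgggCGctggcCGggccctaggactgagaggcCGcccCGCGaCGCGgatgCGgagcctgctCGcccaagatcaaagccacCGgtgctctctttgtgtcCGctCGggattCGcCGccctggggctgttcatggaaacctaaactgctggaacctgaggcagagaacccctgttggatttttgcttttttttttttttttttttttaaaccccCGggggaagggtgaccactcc
Tet1 promoter (chr10:62887275-62887574, minus strand): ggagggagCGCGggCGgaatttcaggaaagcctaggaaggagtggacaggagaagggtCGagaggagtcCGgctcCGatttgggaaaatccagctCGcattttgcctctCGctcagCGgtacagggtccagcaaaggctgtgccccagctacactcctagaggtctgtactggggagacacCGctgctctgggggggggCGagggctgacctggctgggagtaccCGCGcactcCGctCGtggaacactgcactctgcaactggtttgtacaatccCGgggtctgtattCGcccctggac
Smarca1 promoter (chrX:47892564-47892863, minus strand): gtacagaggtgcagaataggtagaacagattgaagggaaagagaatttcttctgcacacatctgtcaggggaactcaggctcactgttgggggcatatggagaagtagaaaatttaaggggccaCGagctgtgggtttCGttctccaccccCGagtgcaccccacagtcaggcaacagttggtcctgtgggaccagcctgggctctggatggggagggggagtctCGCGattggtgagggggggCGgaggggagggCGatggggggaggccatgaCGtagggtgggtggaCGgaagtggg

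The Crebbp window holds 49 CG dinucleotides, and 99.1% of the 32851 windows of all genes hold as many or fewer. Kmt2d has 27, the internal start of Tet1 17 and Smarca1 9, with 56.5% of all windows at or below the count of Smarca1. The median was 24 over the 141 windows of members and 21 over the 11561 windows of background genes. Hdac11 has 22 and the pair of Arid1a windows 22 and 36, so that Smarca1 had the lowest count among the windows of 6 called members. Ino80d is not among these 6, and its promoter was not analysed here. The letters ACAAAG and ACAATG, which SOX proteins are known to bind, were searched on both strands. Among the windows of these 6 called members they occur once, in Kmt2d, as CTTTGT at bases 158 to 163 of the window. At least 1 match is in 24.1% of members' windows, 19.8% of background windows and 28.6% of all windows, and a match is not evidence of binding.

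Genes placed in the histone methyltransferase role, which was assigned by symbol and not by tested activity, mostly had positive folds. Of 26 measured, 23 had a positive fold, but 1 rose, Kmt2d, and 0 fell. Their median log2 ratio (pseudocount 1) was 0.21, against 0.00035 over the background. Of all background genes 50.1% had a positive fold, and 10.1% had a deposited p under 0.05 with a higher level. Among the longest 10% of background transcripts, which hold 11 of these 26 genes, those shares were 76% and 32.2%. Besides Kmt2d, 7 had a deposited p under 0.05, all higher: Kmt2a, Kmt2b, Setd1a, Setd1b, Nsd1, Setd8 and Dot1l. The 6 genes of the COMPASS-type enzymes that methylate histone H3 at promoters and enhancers, Kmt2a to Kmt2d, Setd1a and Setd1b, all had positive folds, and their log2 folds ran from 0.28 to 0.83, per the authors' deposited table. Of these 6 genes 5 were in the longest 10%. Kmt2a stood at 8.16 and 11.2 and its relative Kmt2b at 8.17 and 11.5, with Cuffdiff q values of 0.144 and 0.123, per the authors' deposited table. Setd1a stood at 17.3 and 22.3 and Setd1b at 5.05 and 7.11, per the authors' deposited table. Kmt2c, the closest relative of Kmt2d, had 6.32 and 7.65, a log2 fold of 0.28 with a Cuffdiff q of 0.478, per the authors' deposited table.

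Nsd1, a methyltransferase of gene bodies and intergenic chromatin, was the methyltransferase nearest to a call without reaching it. It had 13.1 and 19.2, per the authors' deposited table, with a log2 fold of 0.55 and a Cuffdiff q of 0.0531. The other Nsd genes, listed as Whsc1 and Whsc1l1, had log2 folds of 0.33 and 0.25, per the authors' deposited table. Setd8, which monomethylates histone H4 in dividing cells, stood at 45.0 and 65.4 with a Cuffdiff q of 0.0643, per the authors' deposited table. Dot1l, which methylates the globular part of histone H3, stood at 18.0 and 24.2, with a Cuffdiff q of 0.187, per the authors' deposited table. The 8 writers of repressive marks (Ehmt1, Ehmt2, Setdb1, Setdb2, Suv39h1, Suv39h2, Suv420h1 and Suv420h2) had log2 folds from -0.14 to 0.21 and 0 had a p under 0.05, per the authors' deposited table. Ehmt2 was the most abundant gene of the histone methyltransferase role, by the mean of both conditions, at 60.2 and 66.7, per the authors' deposited table. Negative folds were seen for 3 genes placed in this role by symbol, Kmt2e, Setd3 and Suv420h1. The lowest was Kmt2e at a log2 fold of -0.31, per the authors' deposited table.

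Genes for histone demethylases had folds on both sides of 0. Of 16 measured, 0 were called by Cuffdiff, 0 had a deposited p under 0.05, and 7 had a positive fold. Log2 folds ran from -0.31, for Kdm3a, to 0.34, for Kdm5c, per the authors' deposited table, and the median log2 ratio was -0.044. Kdm1a, the flavin-dependent demethylase of corepressor complexes, was the most abundant, at 90.6 and 80.0, per the authors' deposited table. The Jumonji-type enzymes of the Kdm4 family all had slightly negative folds, from -0.15 for Kdm4a to -0.04 for Kdm4c, per the authors' deposited table. Kdm5c had 16.3 and 20.7, per the authors' deposited table, while its relative Kdm5b had 23.4 and 19.1, and neither was called. Kdm6a and Kdm6b, which remove the Polycomb mark, had log2 folds of -0.06 and 0.08, per the authors' deposited table. The difference between methyltransferases and demethylases was not tested.

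**Figure D2:**
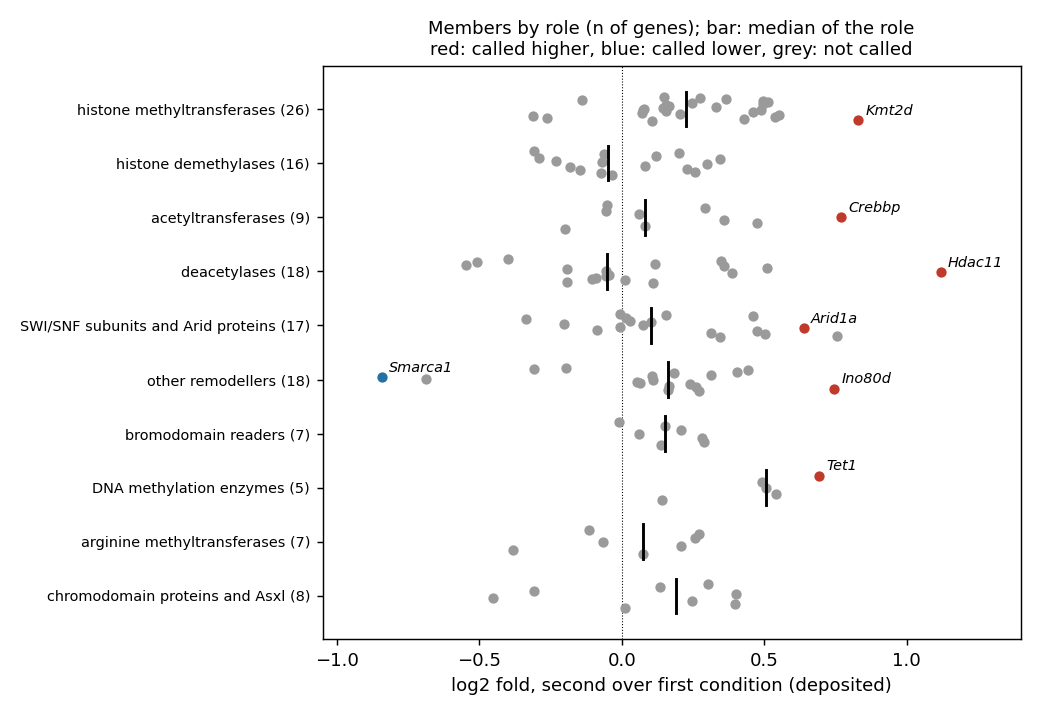
Deposited log2 fold of the second over the first condition for each of the 131 members, grouped in 10 roles with the number of genes in brackets; black bars are the medians of the roles, and colours mark the 7 called genes. The 5 DNA methylation enzymes and most methyltransferases lie right of 0, while the demethylases and deacetylases spread to both sides.

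Among 9 acetyltransferases 1 rose, Crebbp, and 0 fell. Its paralog Ep300, which encodes the coactivator p300, stood at 8.77 and 12.2, a log2 fold of 0.47 with a Cuffdiff q of 0.136, per the authors' deposited table. The other member with a p under 0.05 was Kat6a, a MYST-family enzyme, at 29.4 and 37.7 with a Cuffdiff q of 0.289, per the authors' deposited table. Its relative Kat6b went the other way, with a log2 fold of -0.20, per the authors' deposited table. The remaining MYST enzymes Kat5, Kat7 and Kat8 had log2 folds of -0.05, 0.08 and -0.05, per the authors' deposited table. Kat2a, the catalytic subunit of SAGA, was the most abundant, at 31.9 and 39.1, per the authors' deposited table. Crebbp, Ep300 and Kat6a are in the longest 10% of background transcripts, as is Kat6b. Of background genes of that length 32.2% had a deposited p under 0.05 with a higher level. With the length trend taken off, the log2 ratios of Crebbp, Ep300 and Kat6a were 0.45, 0.21 and 0.14.

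Deacetylases also had folds on both sides of 0. Of 18 measured 1 rose, Hdac11, 0 fell, and 8 had a positive fold. The members with a p under 0.05 that were not called were both lower. Hdac8, a class I enzyme that also acts on cohesin, stood at 25.9 and 17.7, a log2 fold of -0.55 with a Cuffdiff q of 0.121, per the authors' deposited table. Sirt2, a mostly cytoplasmic deacetylase of tubulin that is abundant in myelinating glia, stood at 59.2 and 41.6, a log2 fold of -0.51 with a Cuffdiff q of 0.112, per the authors' deposited table. Exons of Sirt2 overlap Nfkbib on the other strand. The abundant class I genes Hdac2 and Hdac3 had folds of the same sign, both at -0.19, while Hdac1 had 57.3 and 72.9, a log2 fold of 0.35 with a Cuffdiff q of 0.315, per the authors' deposited table. Hdac2 was the most abundant deacetylase, at 139.4 and 122.1, per the authors' deposited table. The mitochondrial sirtuins Sirt3, Sirt4 and Sirt5 and the nuclear Sirt1, Sirt6 and Sirt7 had log2 folds from -0.40 to 0.36, and none had a p under 0.05, per the authors' deposited table.

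The SWI/SNF subunits and Arid proteins numbered 17, of which 1 rose, Arid1a, and 0 fell. The ATPase gene Smarca4, which encodes BRG1, stood at 51.3 and 72.7, a log2 fold of 0.50 with a Cuffdiff q of 0.0877, per the authors' deposited table. The scaffold gene Smarcc1 was similar in size, at 66.9 and 93.0 with a Cuffdiff q of 0.109, per the authors' deposited table. Their alternatives in the complex, Smarca2 and Smarcc2, had log2 folds of 0.03 and 0.07, per the authors' deposited table. The core subunit Smarcb1 stood at 106.3 and 105.8, per the authors' deposited table, with a log2 fold of -0.0065. Smarcd1 had 93.4 and 118.7 with a Cuffdiff q of 0.326, per the authors' deposited table, and was below Smarcb1 in the first condition and above it in the second. Of the other Arid genes, Arid1b and Arid2, alternative subunits to Arid1a, had log2 folds of 0.31 and 0.16, per the authors' deposited table. Arid5b had 5.04 and 6.95 and Arid3b 0.944 and 1.59, per the authors' deposited table, both with a p under 0.05 and neither called.

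Other remodellers numbered 18, with 1 rise, Ino80d, and 1 fall, Smarca1. The other ISWI ATPase, Smarca5, was the more abundant of the pair, at 30.6 and 31.8, a log2 fold of 0.05, per the authors' deposited table. Whether the ATPases differ from each other in response was not tested. The 8 Chd genes all had positive folds, from 0.11 for Chd6 to 0.44 for Chd7, and none was called, per the authors' deposited table. Of these 8 genes 7 were in the longest 10% of background transcripts, where 76% of background genes had a positive fold. Chd7, mutated in CHARGE syndrome, had 11.99 and 16.3 with a Cuffdiff q of 0.155, and Chd8 had 15.8 and 20.9 with a Cuffdiff q of 0.200, per the authors' deposited table. Chd4, the ATPase of NuRD, was the most abundant of the role, at 88.5 and 104.5, per the authors' deposited table. Among the INO80 rows the ATPase Ino80 itself had a log2 fold of 0.31 with a Cuffdiff q of 0.446, per the authors' deposited table. Ino80dos, a member by its name only, is the antisense gene of Ino80d rather than a remodeller, and stood at 2.05 and 1.27 with a Cuffdiff q of 0.916, per the authors' deposited table.

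The 5 DNA methylation enzymes all had positive folds, and 4 of them had a p under 0.05, although only Tet1 was called. Of the 5 genes 4 were in the longest 10% of background transcripts. Of background genes of that length 76% had a positive fold, and 32.2% had a deposited p under 0.05 with a higher level. Tet3, the most abundant Tet gene, had 12.2 and 17.8, a log2 fold of 0.54 with a Cuffdiff q of 0.0526, per the authors' deposited table. Tet2 had 4.75 and 5.24 with a Cuffdiff q of 0.804, per the authors' deposited table. The maintenance methyltransferase gene Dnmt1 had 45.3 and 63.7, a log2 fold of 0.49 with a Cuffdiff q of 0.0949, per the authors' deposited table. The de novo enzyme Dnmt3a had 13.9 and 19.7 with a Cuffdiff q of 0.0827, per the authors' deposited table. Writers and erasers of DNA methylation thus had folds of the same sign. The median log2 ratio of the 5 was 0.48, and 0.25 once the background's trend with transcript length was taken off.

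Readers, arginine methyltransferases and chromodomain proteins held no called gene. Among the 7 bromodomain genes 0 were called by Cuffdiff and 0 had a p under 0.05. The BET genes Brd2 and Brd3 had log2 folds of 0.28 and 0.21, and Brd2 was the most abundant, at 65.1 and 79.2, per the authors' deposited table. Of the 7 arginine methyltransferases 0 were called and 0 had a p under 0.05. Prmt1, the main enzyme of asymmetric arginine methylation, was the most abundant member of all, at 232.3 and 214.4, per the authors' deposited table, and Prmt10 had the largest change in its role, a log2 fold of -0.38. Of the 8 chromodomain and Asxl genes 0 were called and 2 had a p under 0.05. These were Asxl1 and Asxl2, subunits of the Polycomb deubiquitinase, with log2 folds of 0.40 each and Cuffdiff q values of 0.231 and 0.288, per the authors' deposited table. A deposited p under 0.05 with a higher level was found for 10.1% of the background. It was found for 32.2% of the longest 10%, which hold both Asxl genes. With the length trend taken off, the log2 ratio of Asxl1 went from 0.38 to 0.24 and that of Asxl2 from 0.33 to 0.046. The heterochromatin protein gene Cbx3 had 177.3 and 143.1, per the authors' deposited table, with a log2 fold of -0.31, whereas its relatives Cbx1 and Cbx5 had 0.13 and 0.25. GENCODE lists 8 pseudogenes under the symbol of Cbx3, with which its reads may be shared.

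At a looser threshold, which takes in the called genes too, more members were higher than lower in the second condition. A deposited p under 0.05 with a higher level in the second condition was found for 26 members, 19.8%, against 10.1% of the background. The same with a lower level was found for 3 members, 2.29%, against 7.75%. Positive folds were found for 91 of 131 members, 69.5%, against 50.1%. The median log2 ratio was 0.13 over members and 0.00035 over the background. The median level was 13.5 and 16.1 for members in the first and second condition, and 13.6 and 13.7 for the background.

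Transcript length moved with these values. The longest transcript of a member had a median of 4987 nt, against 3205 nt in the background, and 40 of 131 members belonged to the longest 10% of background transcripts, those over 6874 nt. These include 5 of the 6 rises: Kmt2d at 19823 nt, Tet1 at 14369 nt, Ino80d at 13675 nt, Crebbp at 10820 nt and Arid1a at 8187 nt. Hdac11, at 2653 nt, was the exception. Within the longest 10%, 5 of 40 members rose, 12.5%, beside 13.8% of background genes of that length, and 0 of 40 fell, beside 1.04%. Outside it, 1 of 91 members rose, 1.10%, beside 2.13%, and 1 fell, 1.10%, beside 1.98%. At either length the share of members that rose was no higher than that of the background.

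The looser threshold was read within the same length groups. Among the longest transcripts 18 of 40 members, 45%, had a p under 0.05 with a higher level in the second condition, beside 32.2% of the background, and 0 had it with a lower level, beside 2.7%. Positive folds made up 87.5% of these members and 76% of the background. Among the other transcripts the higher direction had 8 of 91 members, 8.79%, beside 7.63%, and the lower direction 3, 3.30%, beside 8.31%. Positive folds there made up 61.5% of members and 47.2% of the background. With the length trend taken off, the median log2 ratio of members was 0.061. Across genes, Spearman's rho between transcript length and log2 fold was 0.45 over 131 members and 0.33 over 11488 background genes, and genes of the same libraries are not independent.

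**Figure D3:**
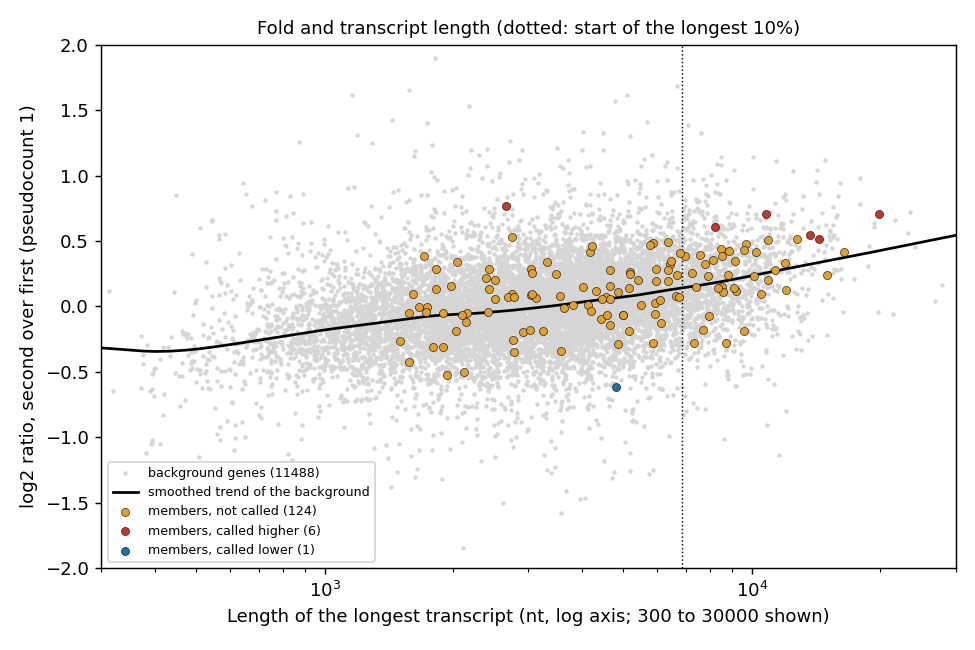
Log2 ratio of second over first condition (pseudocount 1) against the length of the longest transcript (log axis) for 11488 background genes with a known length (grey), their smoothed trend (black line) and the 131 members (coloured); a few background genes lie outside the axes. The dotted line marks the start of the longest 10%, right of which lie 40 members and 5 of the 6 red points.

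**Figure D4:**
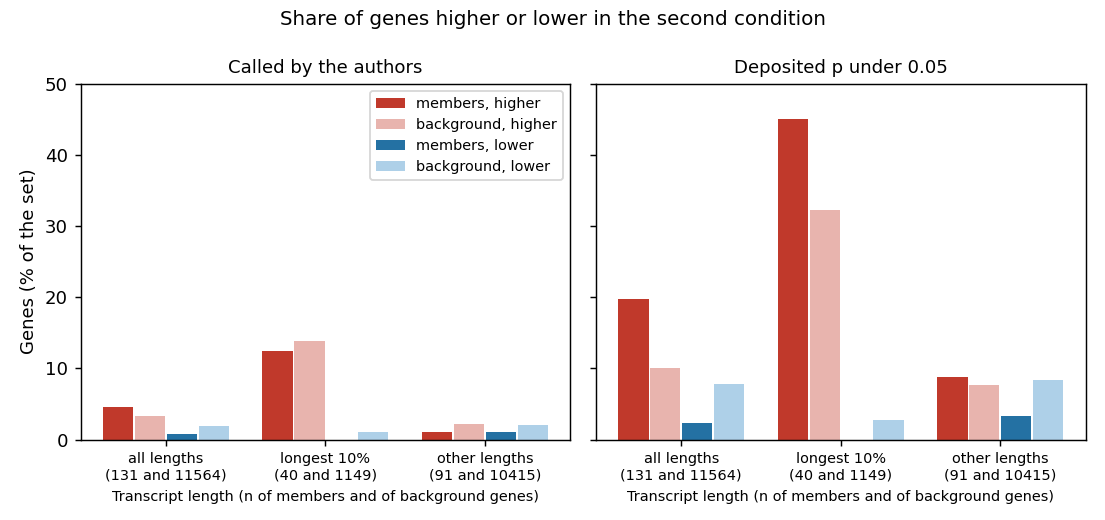
Share of genes (%) that the authors called (left) or that had a deposited p under 0.05 (right), higher in red and lower in blue, for members (dark) and background (pale), over all lengths, the longest 10% of transcripts and the others. The called shares of members and background are close within the longest transcripts, at 12.5% and 13.8%, while the share at a p under 0.05 is 45% and 32.2%.

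The roles differ in length as they do in fold. The methyltransferases had a median length of 6621 nt and the DNA methylation enzymes of 9685 nt, while the deacetylases had 2419 nt and the arginine methyltransferases 2691 nt. The demethylases, with a median of 5558 nt and 4 of 16 in the longest 10%, had a median log2 ratio of -0.099 with the length trend taken off. That of the methyltransferases was then 0.098, and that of the 8 Chd genes went from 0.23 to 0.079. Kmt2a, at 16470 nt, went from 0.42 to 0.042, whereas Setd8, at 2739 nt, went from 0.53 to 0.56. The part of length in any single fold was not tested.

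Partner genes encode other subunits of the same complexes, and some encode other chromatin enzymes or readers of DNA methylation. They rose about as often as the background. The partner lists hold 195 symbols. Some are alternative names of members or of other listed partners, so a missing symbol need not be an unmeasured gene. Of the 195 symbols 168 were measured. Of these 5 rose, 2.98%, against 3.29% of the background, and 1 fell, 0.595%, against 1.89%. Jade2, a subunit of an acetyltransferase complex, rose 3.35-fold, from 0.886 to 2.96, with a Cuffdiff q of 0.00304, per the authors' deposited table. It met the level criterion only through the second condition. Its log2 fold of 1.74 became a log2 ratio of 1.07 with the pseudocount. Trrap, the scaffold of SAGA and NuA4-type acetyltransferases, rose 1.68-fold to 19.6, per the authors' deposited table. Hcfc1, a cofactor of COMPASS-type methyltransferases, rose 1.64-fold to 47.4, per the authors' deposited table. Uhrf1, which brings Dnmt1 to newly replicated DNA, rose from 39.7 to 62.1, with a Cuffdiff q of 0.0162, per the authors' deposited table. Pcgf2, a subunit of Polycomb repressive complex, fell from 7.66 to 4.03, with a Cuffdiff q of 0.0174, per the authors' deposited table. Trrap and Hcfc1 are also in the longest 10% of transcripts, and Jade2, Uhrf1 and Pcgf2 are not. None of the 13 measured SWI/SNF partners or the 31 partners of ISWI, NuRD and INO80 was called by Cuffdiff, and at a p under 0.05 these lists held 0 and 3 genes.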

How the data were processed

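The only values used are those of the authors' comparison of 2 conditions. Per the submitters' processing notes, reads were handled with TopHat2 (2.0.9), Cufflinks (2.2.1) and Cuffdiff, on build mm10. Neither the annotation, strand use nor Cuffdiff version is stated there. Per the file headers, the authors deposited for each gene a pair of levels (taken as FPKM, the unit Cuffdiff writes), a log2 fold, a score (the test statistic), a p-value and a q-value. Nothing was refitted, and the planned test was the authors' own.

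From these values, log2 ratios with a pseudocount of 1 were computed, which understate changes at low levels. Genes with several symbols in a row (82 rows) or a symbol in several rows (166) were left out of the background. Positions, exon overlaps and the length of the longest transcript (coding where there is one) came from GENCODE M21 on GRCm38, the assembly of mm10. All 131 members were found, 6 through an older name, and 99.3% of background genes had a length; genes without one count as not in the longest 10%. The length trend was smoothed with a span of 0.3. Promoters came from RefSeq. The recomputation of q and the removal of the length trend were tested on simulated data, and the other steps were not. Software was matplotlib 3.10.9, statsmodels 0.14.6, scipy 1.17.1, pandas 2.3.3 and numpy 2.4.6 under Python 3.11.15.

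Genes were named by rule: called members, members with a p under 0.05, the most abundant and most changed member of each role, those nearest the level threshold, called partners and Sox4. Some genes that the rule covers are not reported here by name. Relatives of these were added after their values were seen. The members and lists were chosen with earlier results of these data known. Nothing says that passages were independent cultures, so p-values reflect spread among these libraries alone, possibly technical.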

Additional observations from a re-analysis of the deposited data

How the results depend on the processing

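The 6 rises became 3 with a level of at least 5, 2 at a q of 0.01, 1 with a log2 fold of 1 or more in size and 1 without the longest 10% of transcripts. The stricter thresholds can only lower a count. The 1 fall became 0 with a level of at least 5, 0 at a q of 0.01 and 0 with a log2 fold of 1 or more in size. With q recomputed over background genes, Nsd1 (0.0445) and Tet3 (0.0441) passed, giving 8 rises. The median log2 ratio of members went from 0.13 to 0.061 with the length trend taken off and to 0.072 without the longest 10%. Of 43 named members 1 changed sign, Arid5a, to -0.082 with the length trend taken off, from a log2 ratio of 0.0089. A pseudocount cannot change a sign, so it tests none. No paired analysis was possible because no value per passage is used here, so leaving out each replicate was not run either. The depth is unknown and sets no stated limit.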
